A study of Mus musculus with 6 samples.

Results

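The genes of the cytosolic ribosomal proteins were followed in muscle satellite cells of mice homozygous for the Lmna Δ8-11 allele (HOM, labelled -/-) and of wild-type mice (WT, labelled +/+). Members were the protein-coding genes whose GENCODE M21 symbol begins with Rpl or Rps and a number, together with Rplp0, Rplp1, Rplp2 and Rpsa and without the Rps6k kinases. The rule found 91 of the 39059 genes in the count files. They comprised 43 proteins of the large subunit, 3 of its stalk, 31 of the small subunit, 7 paralogues, 6 genes named as retrocopies and Rps19bp1, which matches by name but encodes no ribosomal protein. The 77 genes of the first 3 classes are called core members here.

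All 6 libraries, 3 per genotype, came from C57BL/6J mice at postnatal day 19. Satellite cells, which regenerate muscle fibres, were isolated from hind limb and sorted by flow cytometry, and their total RNA was sequenced after ribosomal RNA removal. Lmna encodes lamins A and C of the nuclear envelope, and the allele is named for a deletion from exon 8 to exon 11. Both genotypes are whole-animal genotypes, so all cell types of the HOM mice carry the allele. The protocol names 3 mice per condition but does not tie a library to an animal, so p-values measure the spread between these samples.

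A ribosome is built from ribosomal RNA and one copy of most ribosomal proteins, and cells usually make these proteins in matched amounts. Ribosomal protein mRNAs begin with a terminal oligopyrimidine (TOP) tract, through which the growth kinase mTORC1 controls their translation. Quiescent satellite cells hold few ribosomes, and their activation and division are accompanied by ribosome production. Unassembled ribosomal proteins such as Rpl5 and Rpl11 bind Mdm2, the ubiquitin ligase that keeps the tumour suppressor p53 low.

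The sequence upstream of the start is shown for 4 core members, from RefSeq on GRCm38.p6, with bases inside any GENCODE exon left out. Rps3a1 is shown because it fell most, Rps27 because it lies in the same region of chromosome 3 and did not pass the test, and Rps6 and Rpsa because they hold a motif that many of these promoters share. They were chosen with their values known. Capitals mark CCGGAAG or its reverse complement, the core to which ETS family factors such as GABPA are known to bind. Rps3a1 lies at chr3:86142703-86142756 on the minus strand, Rps27 at chr3:90213652-90213694 on the minus strand, Rps6 at chr4:86857413-86857532 on the minus strand and Rpsa at chr9:120127569-120127688 on the plus strand.
Rps3a1: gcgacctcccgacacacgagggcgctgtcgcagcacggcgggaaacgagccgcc
Rps27: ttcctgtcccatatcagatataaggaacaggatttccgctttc
Rps6: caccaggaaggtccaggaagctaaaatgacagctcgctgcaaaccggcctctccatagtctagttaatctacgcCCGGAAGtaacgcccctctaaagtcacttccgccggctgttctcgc
Rpsa: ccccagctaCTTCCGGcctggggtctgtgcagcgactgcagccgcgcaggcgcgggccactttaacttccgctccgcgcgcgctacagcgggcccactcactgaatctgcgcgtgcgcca

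Of the 77 core members, 57 had a RefSeq promoter of 300 bases around the start. On either strand, CCGGAAG was in 40.4% of these windows, against 9.12% of 27025 mouse promoters of the same length. The GC box GGGCGG was in 59.6% of the core windows and 35.9% of all. The pyrimidine-rich hexamer CTTTCC was in 47.4% of the core windows and 26.3% of all, AAGATGG in 14.0% and 6.48%, and the TATA box TATAAA in 8.77% and 14.2%. Occurrences of different motifs may share letters. Within the whole window CCGGAAG was in 2 of 6 core members that fell in HOM and in 21 of 51 others, and the 2 were Rps3a1 and Rpl39. The match in Rps3a1 lies nearer to the RefSeq start than the bases printed, inside a GENCODE exon.

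Gene reads per library ran from 6613636 to 9552751, and mitochondrial genes took 3.42 to 5.72% of them. The targeted gene Lmna had 436.4, 375.3 and 450.6 CPM (counts scaled by the TMM-adjusted library total) in HOM and 842.3, 939.4 and 1057 in WT. Counts per gene do not show which exons these reads came from. Y-linked reads were present in HOM replicate 2, WT replicate 2 and WT replicate 3, so the sexes were mixed in both genotypes. Gm42418, a gene that overlaps ribosomal RNA sequence, took 1.3% of gene reads in HOM replicate 2 and 1.39% in WT replicate 2, against 0.0914 to 0.18% in the other 4 libraries. Of 10 satellite cell markers, 8 fell in HOM, with a summed level of 1200 to 1667 CPM in HOM and 2150 to 2185 in WT, and none of the 10 was at 0. All 4 tested adipocyte markers rose and 3 of 5 erythroid markers fell. Over all genes tested, 11.5% were called lower and 9.67% higher, which is the background for each of these lists. The 4 adipocyte markers were each highest in HOM replicate 3. Adipoq had 9.091, 6.468 and 37.18 CPM in HOM replicates 1 to 3, and Cidec had 18.32, 10.92 and 64.67. In sorted populations, fewer cells of a type and less RNA per cell cannot be told apart.

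Ribosomal protein mRNAs were slightly lower in HOM as a group, and few single genes passed the test. The 91 members together took 3.214, 3.491 and 3.181% of gene reads in HOM replicates 1 to 3 and 3.505, 4.316 and 3.658% in WT. All HOM shares lay below all WT shares, with HOM replicate 2 just below WT replicate 1. The means were 3.295% ± 0.1702 and 3.826% ± 0.4312 (SD, n = 3 each), a difference of -0.5314 points (exact two-sided permutation test, p = 0.1, the smallest that 3 against 3 can give). The separation was narrow, and other settings lost it by the exact permutation test. As a share of protein-coding reads, p was 0.3 (difference -0.4726 points). With Gm42418, mitochondrial and small RNA genes left out of the total it was 0.2 (-0.494), and without Rps3a1 it was 0.2 (-0.4787). Without WT replicate 2 the difference was -0.2865 points. Large subunit and stalk genes took 1.887% ± 0.09911 in HOM and 2.168% ± 0.2446 in WT, and small subunit genes 1.379% ± 0.07262 and 1.627% ± 0.1867 (SD, n = 3 each).

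Across the 77 core members the log2 fold change, HOM minus WT, was negative for 69. Its median was -0.215 with an interquartile range of -0.304 to -0.121, beside a median of -0.004 and a range of -0.324 to 0.282 over all 14099 genes tested. At an adjusted p below 0.05 by edgeR's quasi-likelihood test, 7 core members fell, or 9.09%, against 11.5% of all genes called lower. No core member was called higher, against 9.67% of all genes, and 18 had an unadjusted p below 0.05. All HOM libraries lay below all WT libraries for 17 core members, or 22.1%, against 20.6% of all genes, and all HOM lay above all WT for 1, against 20.2%. The shares of called and of separated members were therefore near or below the background, while the direction of small differences was mostly shared.

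**Figure D1:**
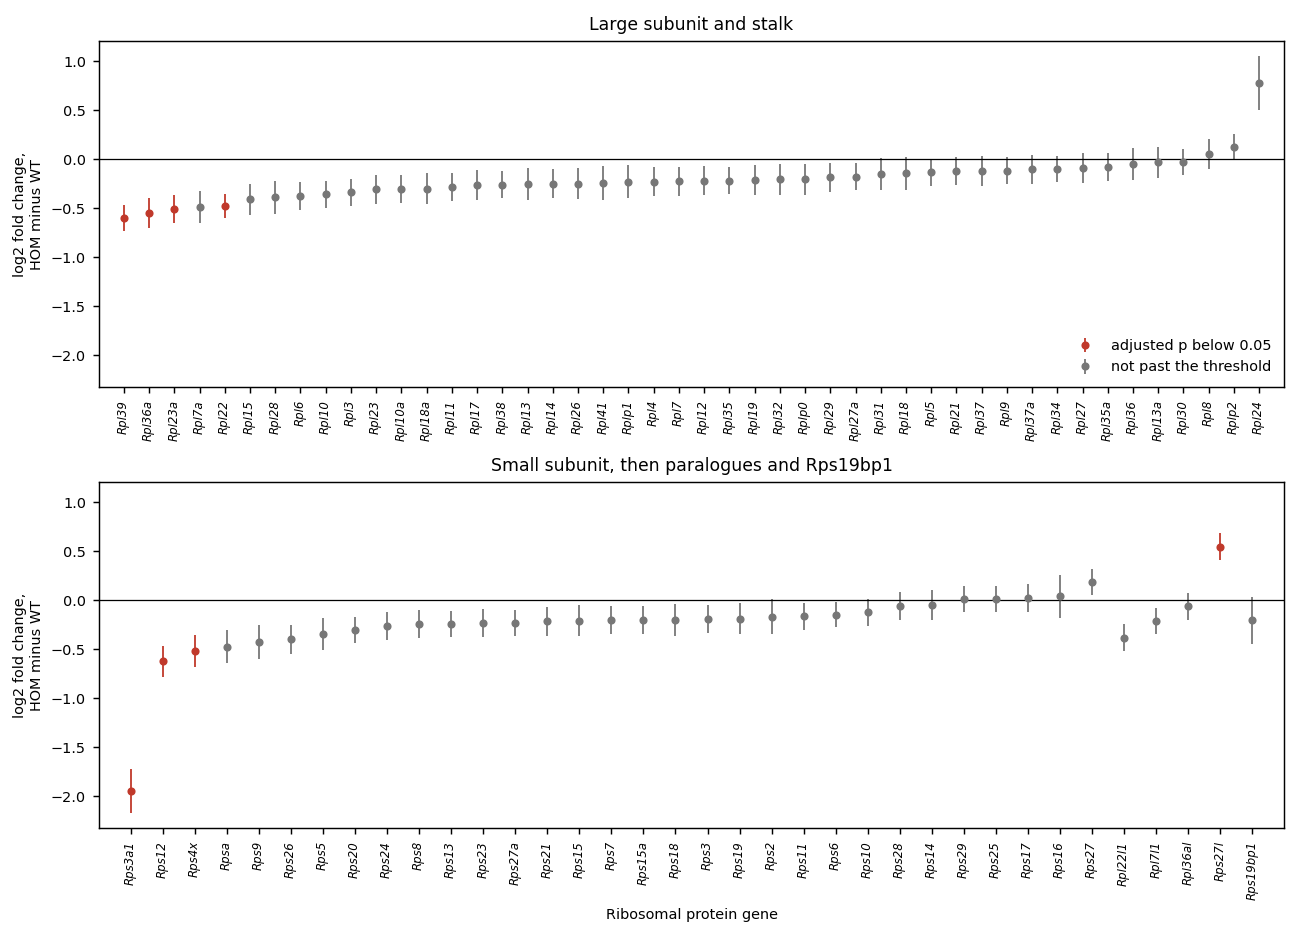
Log2 fold change (HOM minus WT) of each tested member with its standard error as bars, by subunit; red points passed the adjusted threshold. Most points sit just below 0, Rps3a1 lies at -1.94 and Rps27l is the red point above 0.

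One WT library carried much of the group difference. WT replicate 2 was the highest of the 6 libraries for 74 of 77 core members, and HOM replicate 3 the lowest for 60. Relative to each gene's mean log2 CPM over 6 libraries, the median core member stood at -0.078, 0.006 and -0.222 in HOM replicates 1 to 3 and at -0.072, 0.34 and 0.042 in WT. HOM replicate 1 thus stood beside WT replicate 1, and HOM replicate 2 between WT replicates 1 and 3. Without WT replicate 2 the median log2 fold change of core members was -0.075, and 57 of 77 were negative. Without HOM replicate 3 the median was -0.147, and 64 were negative. The proliferation marker Mki67 had 50.69, 140.8 and 43.17 CPM in WT replicates 1 to 3 and 8.951, 11.98 and 9.164 in HOM, so it too was highest in WT replicate 2. Summed pericyte and smooth muscle markers were also highest in WT replicate 2, at 16510 CPM. They were 11670 CPM at the lowest in WT and 12130 to 12980 in HOM. Summed endothelial markers were at their WT minimum there, 470.9 CPM, against up to 723.4 in WT and 400.4 to 692.7 in HOM. HOM replicate 3 had the largest share of reads in no gene, 29.167% of all reads, against 22.79 to 26.45% in the other libraries. The part that dividing cells, the mix of cell types or RNA quality had in the ribosomal protein levels was not tested. The same holds for the Gm42418 reads of WT replicate 2 and the reads in no gene of HOM replicate 3.

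**Figure D2:**
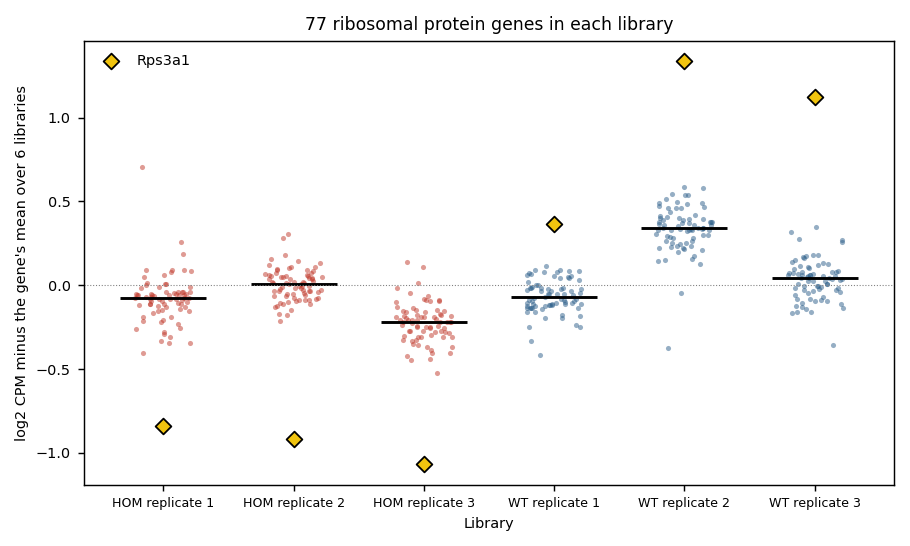
Log2 CPM of 77 core members minus each gene's mean over 6 libraries, by library; red points are HOM, blue points WT, black lines library medians and yellow diamonds Rps3a1. The whole cloud is raised in WT replicate 2 (median 0.34) and lowered in HOM replicate 3 (median -0.222), and Rps3a1 lies below the cloud in all 3 HOM libraries and above it in all 3 WT libraries.

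**Figure D3:**
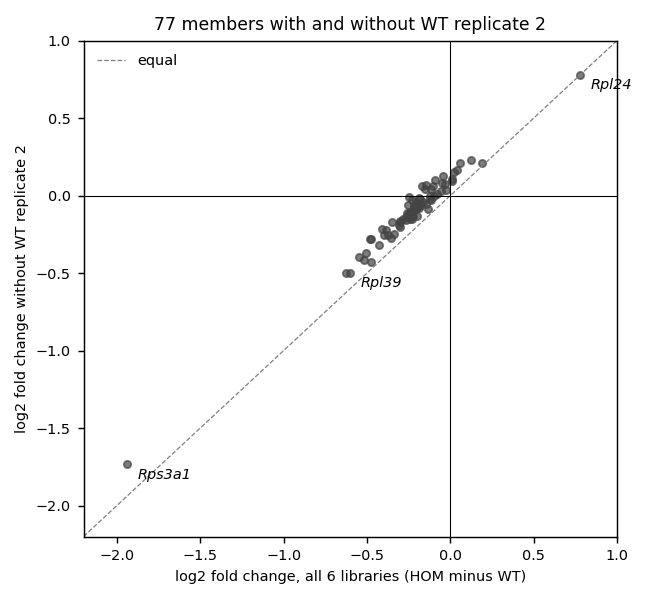
Log2 fold change of 77 core members with all 6 libraries (horizontal) and without WT replicate 2 (vertical); the dashed line marks equal values. Most points lie above the dashed line and close to 0, while Rps3a1 stays far below 0 on both axes.

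The count of members that fell changed with single libraries. It was 7 with all libraries, 2 without HOM replicate 1, 1 without HOM replicate 3, 2 without WT replicate 2 and 2 without WT replicate 3. It was 10 without HOM replicate 2 and 7 without WT replicate 1, where the paralogue Rpl22l1 stood in place of Rps4x. Rps3a1 was called lower in each of the 19 alternative fits. Rpl39 was lost without HOM replicate 3. With a covariate for libraries that hold Y-linked reads, 3 members fell, namely Rps3a1, Rpl39 and Rps12, and none rose.

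Rps3a1 was the member with the largest difference. It encodes a protein of the small subunit that lies near the mRNA exit channel and contacts initiation factors. Its gene lies on chromosome 3 at 86137940 to 86142702 (minus strand, GRCm38). It had 204.2, 193.3 and 174.4 CPM in HOM and 471.6, 925.7 and 798.7 CPM in WT. The highest HOM library was below the lowest WT library by more than 2-fold, and the 3 HOM libraries lay close together. The log2 fold change was -1.94 ± 0.22 (SE), 3.84-fold lower in HOM, with an adjusted p of 0.00084 (edgeR, n = 3 each), and it ranked 81 of 14099 genes by p. Leaving out each library in turn gave -2.18 to -1.74. Among libraries with Y-linked reads (1 HOM, 2 WT) the log2 ratio was -2.16, and among those without (2 HOM, 1 WT) it was -1.32.

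Within the small subunit Rps3a1 changed its share. It gave 1.481, 1.305 and 1.381% of small subunit reads in HOM and 3.291, 4.802 and 5.019% in WT (exact permutation p = 0.1, the smallest possible). Per kilobase, its level ranked 33 of 77 core members from the highest in WT and 73 in HOM. The ratio of large subunit to small subunit reads was 1.373, 1.368 and 1.365 in HOM and 1.366, 1.336 and 1.297 in WT, and the genotypes overlapped (exact permutation p = 0.2). Without Rps3a1 it was 1.388 ± 0.005231 in HOM and 1.394 ± 0.02499 in WT (SD, n = 3 each), so the sign of the difference turned.

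Rps3a1 lies 2.34 Mb from Lmna (88480147 to 88509956 on chromosome 3). Rps27 lies 1.7 Mb from Lmna on the other side, encodes a zinc finger protein of the small subunit, and had 682.7, 652.2 and 594.6 CPM in HOM and 506.1, 581.7 and 603.5 in WT, with overlapping groups. Its log2 fold change was 0.19 ± 0.13 (SE; edgeR adjusted p = 0.327). Within 5 Mb of Lmna 124 genes were tested, of which 10 fell (8.06%) and 18 rose (14.5%), and Rps3a1 had the third lowest fold change. In this design the Lmna allele and any other difference in linked DNA that came with it cannot be told apart. By sequence, 7 annotated pseudogenes matched Rps3a1 at 90% identity or more, up to 99.5%, and none of them is in the count files.

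The large subunit held 4 members that fell. Rpl39, a small protein at the exit of the peptide tunnel, had 209.5, 224.1 and 201.2 CPM in HOM and 273.8, 365.6 and 323.8 in WT. Its highest HOM value was below its lowest WT value, with a log2 fold change of -0.60 ± 0.14 (SE; edgeR adjusted p = 0.0129). Rpl22, an RNA-binding protein that is dispensable for translation in many cells, had 156.4, 172.6 and 146 CPM in HOM and 201.5, 234 and 225 in WT. It too did not overlap between genotypes (log2 fold change -0.48 ± 0.12, SE; edgeR adjusted p = 0.0203).

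Rpl36a, whose protein lies near the site where deacylated tRNA leaves, had 160.7, 184 and 146.9 CPM in HOM and 196.9, 287.1 and 235.3 in WT. Rpl23a, which docks the signal recognition particle at the tunnel exit, had 353.7, 407.8 and 366.4 CPM in HOM and 473.8, 625.2 and 499.9 in WT. Neither overlapped between genotypes. Rpl23a shares exon sequence with Tlcd1 on the opposite strand, which had 250, 258 and 228 reads in HOM and 173, 132 and 143 in WT. Since the strand setting of the counting is unknown, the split of reads between the 2 genes is uncertain. The log2 fold changes of Rpl36a and Rpl23a were -0.55 ± 0.16 and -0.50 ± 0.14 (SE; edgeR adjusted p = 0.0322 and 0.0324). Rpl22, Rpl36a and Rpl23a did not pass without HOM replicate 1, HOM replicate 3, WT replicate 2 or WT replicate 3, in turn.

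Beside Rps3a1, 2 members fell in the small subunit. Rps12, a protein of the head of the subunit, had 397.2, 473.8 and 407 CPM in HOM and 537.3, 764.3 and 668.8 in WT, with a log2 fold change of -0.62 ± 0.16 (SE; edgeR adjusted p = 0.02). Rps4x, the X-linked form of the RNA-binding protein Rps4, had 744.5, 922.7 and 712.7 CPM in HOM and 974.1, 1297 and 1142 in WT. Its log2 fold change was -0.52 ± 0.16 (SE; edgeR adjusted p = 0.0448). The genotypes did not overlap for either gene, and both calls were lost without HOM replicate 1, HOM replicate 3, WT replicate 2 or WT replicate 3, and for Rps4x also without WT replicate 1.

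**Figure D4:**
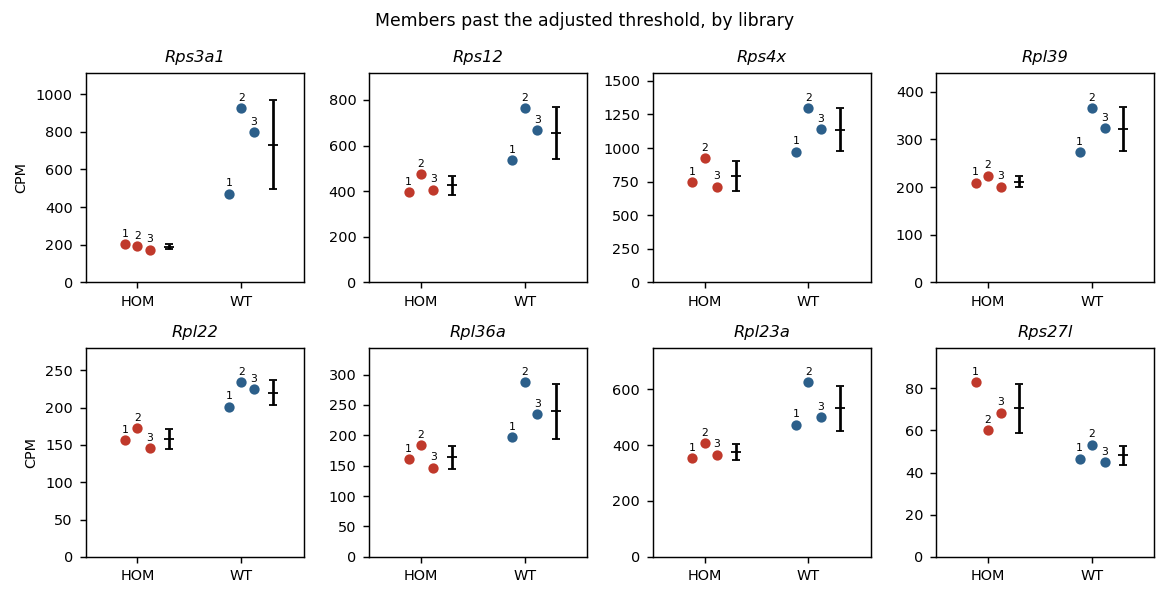
CPM of the 8 members past the adjusted threshold in each library, with replicate numbers above the points and the mean ± SD (n = 3) beside them; every vertical axis starts at 0. All HOM points lie below all WT points for the first 7 genes and above them for Rps27l, and WT replicate 2 is the highest point of each of the 7.

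Of the 4 X-linked core members, Rpl36a, Rpl39 and Rps4x fell, beside 11.5% of all genes called lower. Rpl10, which completes the peptidyl transferase site late in assembly, had a log2 fold change of -0.36 (edgeR adjusted p = 0.0915). The median of the 4 was -0.534, beside -0.208 for the 73 autosomal members. Y-linked reads were present in 1 of 3 HOM and 2 of 3 WT libraries. Among libraries with Y-linked reads the log2 ratio of HOM to WT was -0.621 for Rpl39, -0.505 for Rpl36a, -0.402 for Rps4x and -0.307 for Rpl10. Among those without it was -0.415, -0.356, -0.419 and -0.26. For the median of all core members these values were -0.172 and -0.065. All HOM libraries lay below all WT libraries for each of the 4 genes, so a shared sign in both sets was fixed in advance. With the covariate for Y-linked reads, Rpl39 was still called lower, and Rpl36a and Rps4x were not. The part of sex in these differences was not tested.

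Most members with well-known single roles did not pass the test. Of the 6 large subunit members described here, all but Rpl5 lay further below 0 than the core median log2 fold change of -0.215. Rpl5 and Rpl11, which carry a small ribosomal RNA into the large subunit and bind Mdm2 when free, had log2 fold changes of -0.13 ± 0.14 and -0.28 ± 0.14 (SE; edgeR adjusted p = 0.529 and 0.185). Rpl23, another Mdm2 binder, had -0.31 ± 0.15, and Rpl26, known to bind p53 mRNA, had -0.25 ± 0.15 (adjusted p = 0.156 and 0.276). All HOM libraries of Rpl23 (474.8 to 564.6 CPM) lay below all its WT libraries (582.2 to 759.4 CPM). Rpl3, at the peptidyl transferase centre, had -0.34 ± 0.14 (adjusted p = 0.111), with all HOM libraries (788.5 to 900.7 CPM) below all WT libraries (959.9 to 1170 CPM). Rpl38, known for its part in the translation of Hox mRNAs, had -0.26 ± 0.14 (adjusted p = 0.207). None of these 6 passed the test.

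The genes of the stalk proteins, which recruit translation factors to the ribosome, did not pass the test. Rplp0, the base of the stalk, had 1161, 1355 and 1011 CPM in HOM and 1237, 1570 and 1262 in WT. Rplp1 had a log2 fold change of -0.23 ± 0.17 and Rplp2, its partner, one of 0.13 ± 0.13 (SE; edgeR adjusted p = 0.348 and 0.52). The groups overlapped for all 3.

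In the small subunit, Rps6, the substrate of S6 kinase, had 308, 321.8 and 310.6 CPM in HOM and 302.5, 390.9 and 349.1 in WT, with overlapping groups (log2 fold change -0.15 ± 0.13; edgeR adjusted p = 0.439). Rpsa, also known as the laminin receptor, had 570.9, 636.4 and 545.4 CPM in HOM and 709.6, 1021 and 707.4 in WT. Its groups did not overlap, but its log2 fold change of -0.48 ± 0.17 did not pass (adjusted p = 0.0697). Rps19, the gene most often mutated in Diamond-Blackfan anaemia, had -0.19 ± 0.15, and Rps7, also mutated there, -0.20 ± 0.14 (adjusted p = 0.415 and 0.335). Rps3, at the mRNA entry channel, had -0.19 ± 0.14, Rps15, needed for export of the subunit, -0.21 ± 0.16, and Rps27a, made as a fusion with ubiquitin, -0.23 ± 0.14 (adjusted p = 0.367, 0.375 and 0.247).

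Per kilobase of mRNA and by the mean of both genotypes, the most abundant small subunit members were Rps27 (1864 RPKM, which is CPM per kilobase, in HOM and 1634 in WT) and Rps28 (1280 and 1332). In the large subunit they were Rpl31 (992.8 and 1105 RPKM) and Rpl26 (957.2 and 1136 RPKM), though in HOM alone Rpl9 (986 RPKM) stood above Rpl26. None of the 4 passed the test. The log2 fold change was -0.15 ± 0.16 for Rpl31 and -0.06 ± 0.14 for Rps28 (SE; edgeR adjusted p = 0.532 and 0.799).

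Rpl24 and Rpl13a stood far below the other core members, with 2.315 to 5.035 and 13.89 to 19.24 CPM. Each shares exon sequence on the same strand with another gene, Gm28037 and Gm45713, which had 0 reads in every library. Reads that overlap more than 1 gene were set aside as ambiguous in these files, 0.888 to 0.961% of all reads, so the values of both genes are uncertain. Rpl5, Rpl31, Rps27a, Rps28 and Rpl22l1 overlap a gene on the opposite strand, as Rpl23a does. Rpl24 was the core member whose 3 HOM libraries all lay above the WT libraries (log2 fold change 0.78 ± 0.27; edgeR adjusted p = 0.0667).

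Ribosomal protein genes have many near-identical pseudogenes, and reads that align to several places were set aside, at 19.7 to 24% of all reads. By sequence, 74 of 77 core members matched at least 1 annotated pseudogene, with a median of 10. Of 1069 matches, 26 pseudogenes are in the count files and held 109 reads over all libraries. CPM of these genes therefore counts reads that align to 1 place. Across the 77 core members (genes, which are not replicates), Spearman's rho of the log2 fold change was -0.27 with mRNA length, -0.051 with the number of matched pseudogenes and -0.077 with mean CPM. The 30 core members that host a small nucleolar RNA had a median log2 fold change of -0.239, and the other 47 one of -0.206.

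Among the 7 paralogues, 4 were abundant enough to test, and Rps27l rose. Rps27l, a close copy of Rps27 that is known as a p53 target, had 82.8, 60.01 and 68.46 CPM in HOM and 46.64, 53.26 and 44.82 in WT. All HOM libraries lay above all WT libraries, with a log2 fold change of 0.55 ± 0.14 (SE; edgeR adjusted p = 0.0217). Leaving out each library in turn gave 0.42 to 0.65, and the call was lost without HOM replicate 1, HOM replicate 3, WT replicate 1 or WT replicate 3. Rps27l reads were 12.1, 9.2 and 11.5% of Rps27 reads in HOM and 9.22, 9.16 and 7.43% in WT, and the genotypes overlapped (exact permutation p = 0.2, adjusted p = 0.4 over 6 pairs).

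Rpl22l1, the paralogue that Rpl22 is known to repress, had 124.9, 112.6 and 106.4 CPM in HOM and 121.6, 163.1 and 163.3 in WT, with overlapping groups. Its log2 fold change was -0.38 ± 0.14 (SE; edgeR adjusted p = 0.0766). Rpl22l1 was called lower without WT replicate 1 and without a filter on low counts. As a share of Rpl22, Rpl22l1 was 79.9, 65.2 and 72.9% in HOM and 60.4, 69.7 and 72.6% in WT. The log2 difference was 0.1051 (exact permutation p = 0.4, adjusted 0.6).

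Rpl36al, a retroposed copy of Rpl36a, had 52.49 to 60.98 CPM in HOM and 50.69 to 69.31 in WT. Its reads were 37.9, 29.2 and 35.7% of Rpl36a reads in HOM and 25.7, 24.1 and 23.2% in WT. Every HOM share lay above every WT share, with a log2 difference of 0.486 (exact permutation p = 0.1, the smallest possible, adjusted 0.3), while the level of Rpl36al itself differed by -0.06 ± 0.14 on the log2 scale (SE; edgeR adjusted p = 0.788). Rpl7l1, a nucleolar relative of Rpl7, stood at 4.18 to 5.71% of Rpl7 in HOM and 4.2 to 4.91% in WT (exact permutation p = 0.9). The level of Rpl7l1 differed by -0.21 ± 0.13 and that of Rpl7 by -0.23 ± 0.15 on the log2 scale (SE; edgeR adjusted p = 0.276 and 0.297).

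The tissue-restricted paralogues were nearly absent. Rpl3l, the form made in differentiated muscle, had 9, 13 and 5 reads in HOM and 2, 0 and 5 in WT. The groups touched at 5 reads, and the ratio to Rpl3 differed by 2.471 on the log2 scale with 0.5 reads added (exact permutation p = 0.1, adjusted 0.3). That size depends on the reads added to the 0 of WT replicate 2, and without this library it was 1.557. Rpl39l, known from testis, had 24 reads in HOM and 19 in WT (p = 0.5 by the exact permutation test of its ratio to Rpl39), and Rpl10l had 0 reads in all libraries. Of the genes named as retrocopies, Rpl10-ps3 had 19 reads in HOM and 31 in WT, Rps27rt 17 and 15, and Rpl9-ps6 8 and 15. The remaining 3 had at most 2 reads in all, and none of the 6 was tested. Rps19bp1 had 4.451 to 6.993 CPM in HOM and 6.095 to 7.949 in WT.

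**Figure D5:**
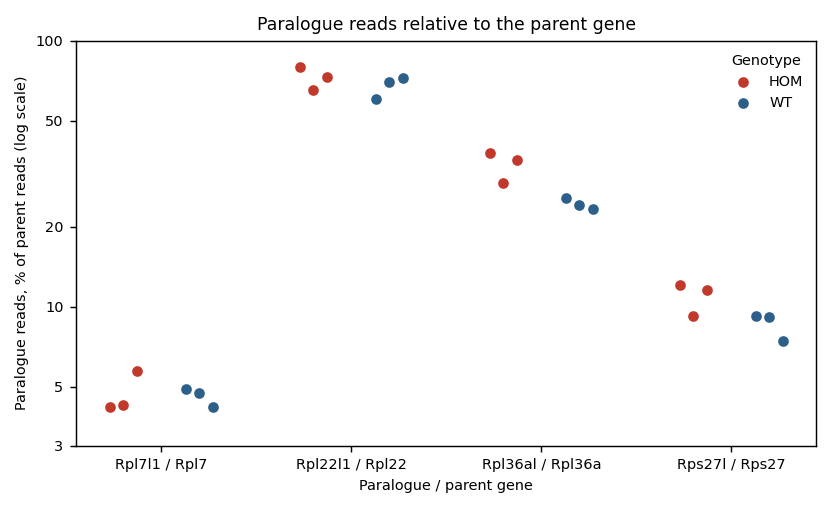
Reads of each tested paralogue as a percentage of its parent gene's reads in each library, on a log axis; red is HOM and blue is WT. For Rpl36al the 3 HOM libraries (29.2 to 37.9%) lie above the 3 WT libraries (23.2 to 25.7%), and the other 3 pairs overlap.

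Rack1 and Fau, which encode ribosomal proteins under other symbols, did not pass. Rack1, a scaffold on the small subunit, had a log2 fold change of -0.32 ± 0.16, and Fau, the precursor of Rps30, one of 0.06 ± 0.15 (SE; edgeR adjusted p = 0.174 and 0.802).

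Of 17 other genes with TOP mRNAs, 3 fell and none rose, beside 11.5% of all genes lower and 9.67% higher, a background that holds for every list here. These were Hnrnpa1, an RNA-binding protein (log2 fold change -0.60), Eef1d (-0.44) and Eef1g (-0.55), both subunits of the complex that reloads the elongation factor eEF1A (edgeR adjusted p = 0.0172, 0.0264 and 0.0373). Eef1d and Eef1g were also the 2 that fell among 12 tested elongation and termination factors. Of 34 initiation factors, 1 fell, the cap-binding protein Eif4e, from 92 ± 12.71 CPM in WT to 67.95 ± 1.357 in HOM (SD, n = 3 each; edgeR adjusted p = 0.0309). The lists together held 4 genes that fell with all libraries, 2 without HOM replicate 1, 0 without HOM replicate 3, 0 without WT replicate 2 and 1 without WT replicate 3.

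Among 14 genes of mTORC1 and TOP control, 2 rose, beside 9.67% of all genes. With lists this short, counts of 1 to 3 are not read as results about a list. The mTORC1 inhibitor Tsc1 had 75.25, 60.86 and 63.75 CPM in HOM and 37.73, 31.95 and 34.41 in WT (log2 fold change 0.94 ± 0.13, SE; edgeR adjusted p = 0.00152). The kinase Mtor had 94.97, 84.61 and 90.2 CPM in HOM and 68.63, 66.61 and 65.01 in WT (0.43 ± 0.10; adjusted p = 0.0166). Neither gene overlapped between genotypes.

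Of 8 chaperones of ribosomal proteins, Grwd1, which escorts Rpl3, rose from 12.5 ± 0.6382 to 19.04 ± 0.4481 CPM (SD, n = 3 each; edgeR adjusted p = 0.015). Among 6 noncoding host genes with TOP starts, Snhg8 rose (0.49 ± 0.13; adjusted p = 0.0228). Of 3 genes that link free ribosomal proteins to p53, Mdm2 rose, with 109, 83.65 and 98.7 CPM in HOM and 63.88, 67.88 and 70.09 in WT (0.53 ± 0.12; adjusted p = 0.0143). The subunit joining factors Sbds and Eif6 had 0.11 ± 0.12 and 0.07 ± 0.14 (adjusted p = 0.53 and 0.751). The lists together held 5 genes that rose with all libraries, 2 without HOM replicate 1, 3 without HOM replicate 3 and 1 without WT replicate 1.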

How the data were processed

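For each library the authors deposited a file of raw counts by Ensembl gene. Per the submitters' processing notes the build was mm10 and the tools included HTSeq 0.6.1, STAR 2.5.2b and Trimmomatic 0.32. Libraries were stranded, per the labels' protocols. The annotation release and strand setting, not given in the sources used here, were not assumed. Summary lines (reads in no gene, ambiguous or not unique) were left out of totals and tests. Reads in no gene were 22.79 to 29.167% of all reads in a file. Symbols and positions came from GENCODE M21 (GRCm38), which matched 38861 of 39059 identifiers. Libraries were grouped by title. No 2 libraries of a genotype agreed within sampling noise.

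Counts were tested with edgeR 4.0.16 in R 4.3.3 (filterByExpr with minimum count 10 and minimum total 15, TMM factors, quasi-likelihood test without covariates), with Benjamini-Hochberg adjustment over 14099 genes and a threshold of 0.05. The standard error is the size of the log2 fold change over the square root of F. RPKM used the shortest protein-coding transcript of the best APPRIS rank, which for Rps20 is long and lowers its value. Shares and ratios were compared by exact two-sided permutation over 20 assignments. Pseudogenes were matched with blastn 2.17.0 at 90% identity over 70% of the pseudogene and 150 bases. The fit was tested on simulated data, where false genes made up a larger share of the calls than the threshold allows, so calls just past it are less certain than their adjusted p states. Alternatives used DESeq2 1.42.0 and limma 3.58.1, other filters and scalings, and libraries left out.

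Members and lists were chosen with earlier results of these data known. Named genes were members with a known single role, the 4 called members of smallest p and the 2 of highest RPKM in each subunit, every paralogue with at least 10 reads and its parent, and in each list up to 4 called genes or else the 2 most abundant. Rpl24, Rpl13a, Mki67 and the genes left untested were named after their values were seen.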

Additional observations from a re-analysis of the deposited data

How the results depend on the processing

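With 7 members lower and 1 higher by edgeR, DESeq2 called 11 lower, limma voom 12 and edgeR without a filter on low counts 14, each with the same 7 among them. With Y-linked reads as a covariate 3 were lower and 0 higher, and without WT replicate 2 in that fit (chosen after seeing the data) 1 was lower. Leaving out each library gave 1 to 10 lower and 0 to 1 higher. Large subunit members lower, 4 in all, numbered 7 by DESeq2, 7 without a filter, 1 with the Y covariate, 0 with that covariate and without WT replicate 2, and 0 to 5 over libraries left out. Small subunit members lower, 3 in all, numbered 6 by voom, 6 without a filter, 1 with the Y covariate and without WT replicate 2, and 1 to 5 over libraries left out. The median log2 fold change of core members ran from -0.304 to -0.075 over libraries left out and was -0.055 with the Y covariate and without WT replicate 2. The cause of these changes was not tested, and fits with a library left out hold fewer samples.

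All genes called, 2980, numbered 1932 with the Y covariate, 1624 with it and without WT replicate 2, and 1576 to 4002 over libraries left out. Genes called lower, 1617, numbered 975 with the covariate and without WT replicate 2, and 881 to 2238 over libraries left out. List genes lower, 4 in all, numbered 1 with the covariate, 0 with it and without WT replicate 2, and 0 to 6 over libraries left out. List genes higher, 5 in all, numbered 8 by voom, 1 with the covariate and without WT replicate 2, and 1 to 7 over libraries left out.

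Signs turned for small differences. The log2 ratio of large to small subunit reads went from 0.03841 to -0.005925 without Rps3a1, and Rpl39l over Rpl39 to -0.178 without both libraries highest in Gm42418. Rpl7l1 over Rpl7 ran from -0.1284 to 0.09557 over libraries left out. Rpl36al turned to 0.01 by voom, 0.107 without both libraries highest in Gm42418, 0.083 with the Y covariate and without WT replicate 2, and ran from -0.156 to 0.084 over libraries left out. Rpl31 turned to 0.007 and 0.053 in the latter pair of fits (-0.252 to 0.043 over libraries left out), and Rps28 to 0.028 with the Y covariate and 0.067 with it and without WT replicate 2 (-0.159 to 0.031). Over libraries left out, Eif6 ran from -0.033 to 0.226 and Fau from -0.019 to 0.2.

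Same-numbered libraries did not deviate together (correlations -0.036, 0.022 and -0.096, beside -0.041 to 0.095 for differently numbered ones). Deviations were taken from the mean of 3 libraries per genotype, so these values cannot settle whether the numbers pair the samples. With a replicate block, 6 members were lower, without Rps4x (adjusted p = 0.0527). Changing the scaling left the 7 and 1 as they were. Adding pseudogene reads did too, but matched pseudogenes in the files held 109 reads over all libraries. That addition could hardly change a call, and reads that align to several places were not added back. A Rpl3l ratio with no reads added could not be had, since WT replicate 2 has 0 reads, and Rps4l and Rpl10l gave no pair.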
